A study of Mus musculus with 2 samples.

Results

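DLX2 CUT&Tag peaks were examined around 9 genes that encode homeodomain and paired transcription factors of the developing face, namely *Msx1*, *Msx2*, *Alx1*, *Alx4*, *Pax3*, *Pax7*, *Pax9*, *Prrx1* and *Prrx2*. A peak was counted for a gene when it touched the gene's extent in the RefSeq annotation of GRCm38.p6 (mm10) or the 100 kb on either side, a stretch called here the window of that gene. The 9 genes were compared with all 21775 protein-coding genes under the same rule. The tissue was the maxillary process, the embryonic outgrowth that gives rise to most of the upper jaw, taken from E12.5 wildtype mice of the C57BL/6 strain. Both libraries were made with the same anti-DLX2 antibody (Abcam ab272902) and form 1 group of 2 replicates, numbered in the order of their sample records. Neither library came from treated or mutant animals, no control library was used here, and the sources do not say whether the replicates were pools of embryos or came from separate litters. In CUT&Tag an antibody guides a transposase to its target, so that tagged fragments pile up there. A peak is a stretch where the pile rises above the local background. Its fold is the ratio of the 2, taken here to have 1 added to each.

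DLX2 is itself a homeodomain factor of the neural crest, the migratory cells that build the facial skeleton. MSX1 and MSX2 are homeodomain factors known mainly as repressors downstream of BMP signals in teeth, palate and skull. ALX1 and ALX4 pattern the mesenchyme of the upper face, and PRRX1 and PRRX2 act with overlapping roles in facial and limb mesenchyme. PAX3 and PAX7 carry a paired domain and a homeodomain and mark neural crest and muscle precursors, while PAX9 carries a paired domain alone and is needed for teeth and palate.

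The windows of the 9 genes held 39 peaks in replicate 1 and 86 in replicate 2, out of 28061 and 62093 in the whole lists. The deposited lists are longer than the peak sets the study describes, and the step between them is not given in the sources used here, so all counts below refer to the deposited lists. The ratio of replicate 2 to replicate 1 was 2.21 in the windows and 2.21 over the whole lists. Where peaks of both replicates overlapped by 1 bp or more, the stretch they had in common is called a shared region, and 17 of the 10921 shared regions lay in the windows. Of the 9 genes, 6 had at least 1 shared region, or 66.7%, against 60.2% of all protein-coding genes. At least 1 replicate 1 peak was found for 8 of the 9 genes, against 83.0% of protein-coding genes, and at least 1 replicate 2 peak for 9 of 9, against 91.7%. The median number of shared regions was 1 over the 9 genes and 1 over all protein-coding genes. For peaks, the medians were 2 against 3 in replicate 1 and 9 against 8 in replicate 2. Windows of 200 kb gave a shared region for 9 of 9 genes, against 75.4% of protein-coding genes. Among peaks with a −log10 q of at least 5, 3 of the 9 genes had a shared region, against 14.9%, and among peaks with a fold of at least 5 it was 3 of 9, against 28.6%. Without such filters and at 100 kb, the shares for the 9 genes were close to those for coding genes at large, and none of the shares was tested against its background.

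**Figure D1:**
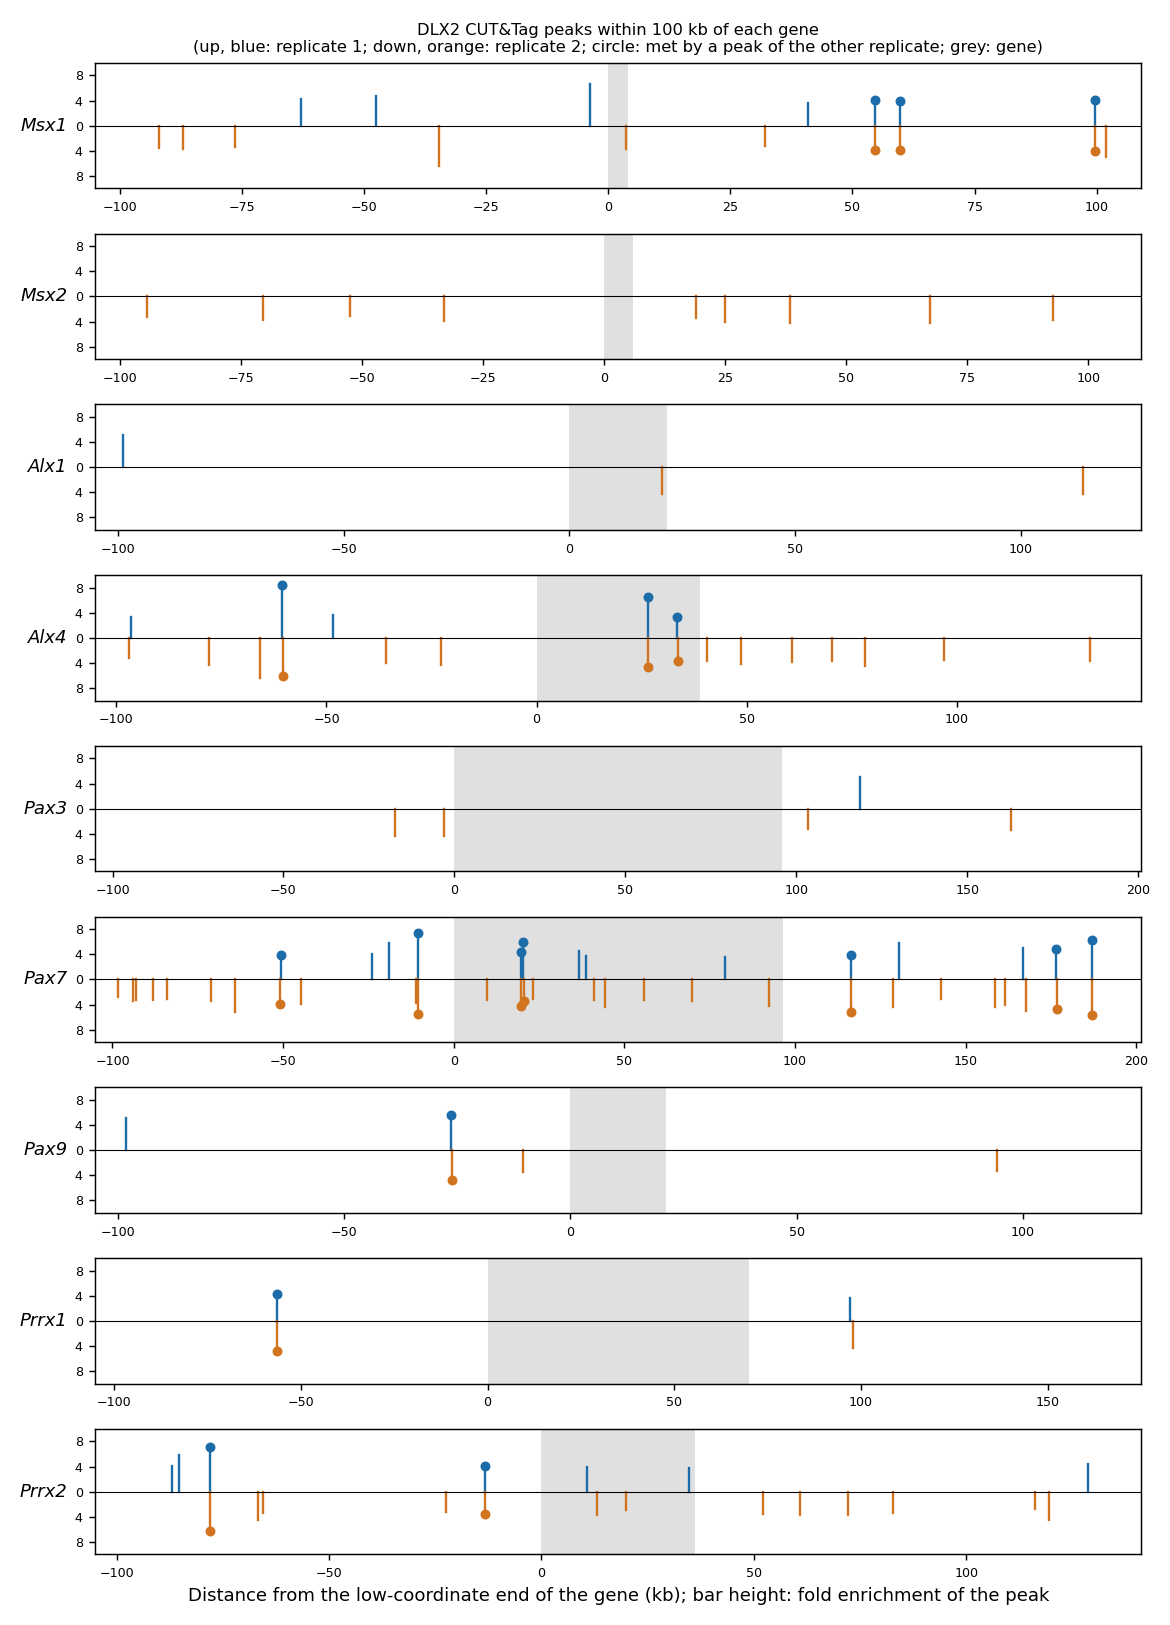
Peaks in the windows of the 9 genes, by distance in kb from the end of the gene with the lower coordinate; bar height is the fold, upward for replicate 1 and downward for replicate 2, circles mark peaks met by the other replicate, and grey marks the gene. *Pax7* carries 14 peaks in replicate 1 and 28 in replicate 2, whereas *Alx1*, *Pax3*, *Pax9* and *Prrx1* carry at most 4 in either.

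The 9 genes differed widely among themselves. *Pax7* led on each count, with 7 shared regions from 14 replicate 1 peaks and 28 replicate 2 peaks. Among peaks with a −log10 q of at least 5, however, *Pax7* had 1 shared region and *Alx4* led with 2. *Msx1* and *Prrx2* each had 7 peaks in replicate 1, with 10 and 13 in replicate 2 and 3 and 2 shared regions. *Alx4* had 5 and 15 peaks and 3 shared regions. *Pax9* had 2 and 3 peaks, *Prrx1* had 2 and 2, and each had 1 shared region. *Pax3* had 1 and 4 peaks, *Alx1* had 1 and 2, and *Msx2* had 0 and 9, all 3 without a shared region. Within each named pair, *Msx*, *Alx*, *Prrx* and *Pax3* with *Pax7*, only 1 partner had more than 1 shared region.

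**Figure D2:**
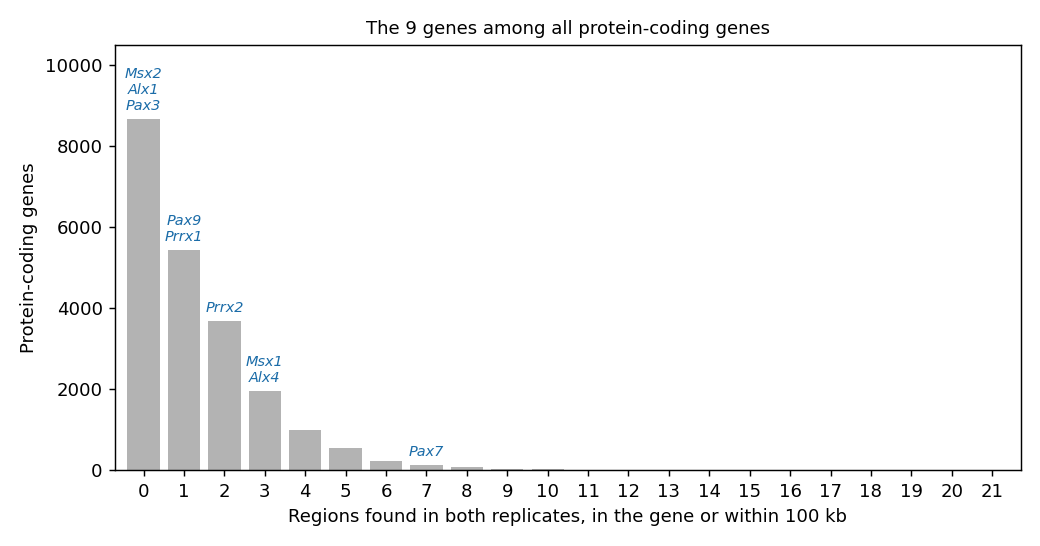
Number of protein-coding genes (vertical axis) by the number of shared regions in their window (horizontal axis), with the 9 genes named above the bar they belong to. *Msx2*, *Alx1* and *Pax3* stand with the 8657 genes that had 0, and *Pax7* with the 117 that had 7.

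The *Pax7* window was the richest. *Pax7* lies on chromosome 4 at 139737059 to 139833530, and its transcript start was taken from RefSeq at 139832968 on the minus strand. As a background, 1.37% of protein-coding genes had as many shared regions in their window or more. That share takes no account of window length, and the *Pax7* window, at 296.5 kb, was the longest of the 9. *Pax7* was singled out here because it had the highest count of the 9. Of its 7 shared regions, 2 lay inside the gene, 2 beyond its downstream end and 3 beyond its upstream end. The first region inside the gene was chr4:139756683-139756826, 76.2 kb downstream of the start, with folds of 4.30 and 4.24 in replicates 1 and 2. The other was chr4:139757457-139757628, only 630 bp farther toward the start, with recovered summits of 10 fragments in each replicate. Its folds differed, at 5.99 in replicate 1 and 3.39 in replicate 2, where the background was higher. By the lower of its folds, this region ranked above 6.47% of all shared regions. Whether the 2 regions inside the gene lie in introns or exons was not determined, since the annotation used here gives gene extents only.

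Downstream of *Pax7*, chr4:139726396-139726604 lay 10.5 kb from the gene with folds of 7.40 and 5.58 in replicates 1 and 2, and the summits were 26 bp apart. This was the strongest peak of replicate 1 in the *Pax7* window. Farther downstream, chr4:139686207-139686432 lay 50.6 kb from *Pax7*, but closer, at 15.9 kb, to *Tas1r2*, a sweet taste receptor gene. On the upstream side, chr4:139923942-139924206 lay 90.4 kb from *Pax7* inside the lncRNA gene *Gm1667*, with folds of 6.20 and 5.61 in replicates 1 and 2. It was the strongest peak of replicate 2 in the window. A further region, chr4:139913647-139913759, lay in the same lncRNA gene with folds of 4.77 and 4.79 in replicates 1 and 2. The protein-coding gene nearest to both regions in *Gm1667* was *Klhdc7a*, at 48.4 kb for the weaker and 38.0 kb for the stronger. The last region, chr4:139853547-139853728, lay between *Pax7* and *Gm1667*, 0.627 kb from the lncRNA gene *Gm46873*. By nearest protein-coding gene, 4 of the 7 regions belonged to *Pax7*.

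*Pax3*, the closest relative of *Pax7* in this group, gave a contrast in a window of nearly the same length. The windows were 295.9 kb for *Pax3* and 296.5 kb for *Pax7*. In replicate 1 *Pax3* had 1 peak (95% exact Poisson interval 0.0253 to 5.57) and *Pax7* had 14 (interval 7.65 to 23.5). In replicate 2 *Pax3* had 4 peaks (interval 1.09 to 10.2) and *Pax7* had 28 (interval 18.6 to 40.5). For shared regions the counts were 0 (interval 0 to 3.69) and 7 (interval 2.81 to 14.4). As *Pax7* was taken for its high count, these values describe the pair and are no test of a difference. The intervals, like all others given here, cover counting error only. No peak of either replicate lay inside *Pax3*, a gene of 95870 bp on chromosome 1. Since the strand of *Pax3* was not at hand, its sides are given in coordinate order. The strongest *Pax3* peak of replicate 1, chr1:78219730-78219854, reached a fold of 5.05 and lay 22.6 kb off the high-coordinate end. That of replicate 2, chr1:78083719-78083886, lay 17.4 kb off the low-coordinate end, and its fold was 4.28. The latter fold was shared with a second peak, 2.87 kb from the gene.

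The surroundings of the 2 genes differed in the same direction. In the flanks, taken from the window's edge to 1 Mb from the gene on each side, replicate 1 had 38.9 peaks per Mb around *Pax7* and 10.6 around *Pax3*. Replicate 2 had 82.2 and 17.8. The *Pax7* window held 27.0 annotated genes per Mb and its flanks 34.4, against 10.1 and 13.3 for *Pax3*. The part of regional peak density and gene density in the difference between the genes was not tested.

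The same comparison with the flanks was made for all 9 genes. At the density of its flanks, the *Pax7* window would hold 11.5 peaks in replicate 1 and 24.4 in replicate 2, both inside the intervals of the observed counts. *Alx1* lay in the poorest neighbourhood, with 1.11 peaks per Mb in replicate 1 and 2.78 in replicate 2 in its flanks. Of the 18 counts, 9 genes in 2 replicates, 17 had an interval that took in the count at the density of the flanks. The exception was *Msx2* in replicate 1, with 0 peaks (interval 0 to 3.69) where the density of its flanks, 29.4 peaks per Mb, would give 6.06. For Poisson counts, intervals of this kind leave out the true rate in up to 5% of cases. The density of the flanks is itself an estimate, resting on 2 and 5 peaks for *Alx1* in replicates 1 and 2. Its error is not part of the intervals. In replicate 2 *Msx2* had 9 peaks (interval 4.12 to 17.1) against 12.9 at the density of its flanks. For shared regions, the counts at the density of the flanks were 0.680 for *Msx1* against 3 observed (interval 0.619 to 8.77), 2.65 for *Alx4* against 3, 5.11 for *Pax7* against 7 and 2.89 for *Prrx2* against 2. The value was 0.614 for *Pax9* and below 1 for *Prrx1*, each against 1 observed. For *Msx2*, *Alx1* and *Pax3* they were 2.52, 0.123 and 1.48, each against 0.

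**Figure D3:**
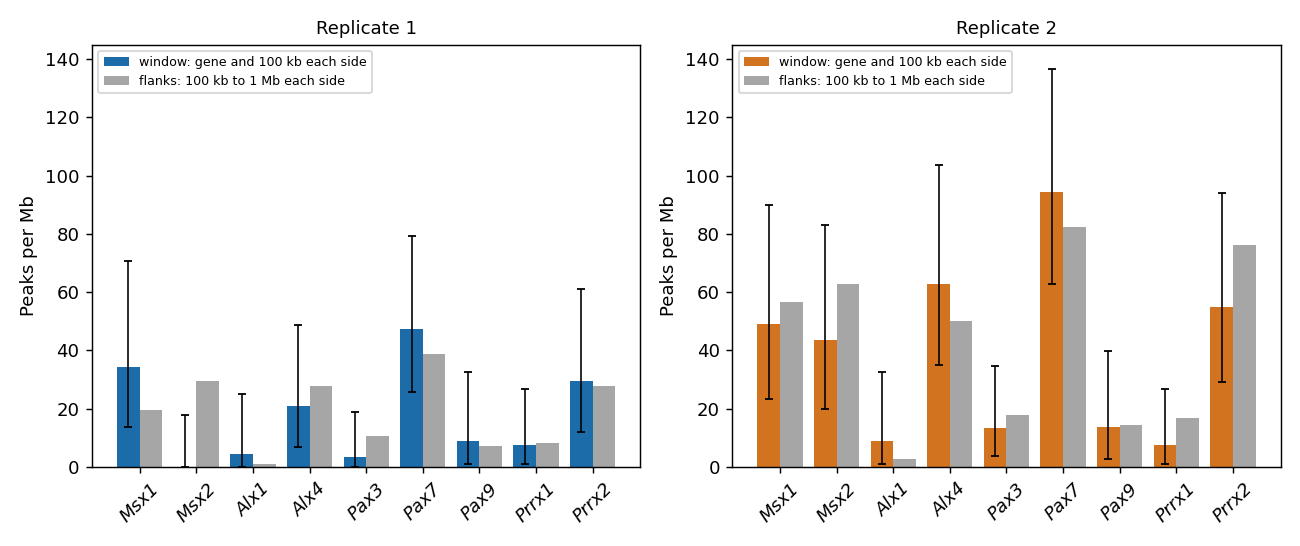
Peaks per Mb (vertical axis) in the window of each gene (coloured bars) and in its flanks out to 1 Mb (grey bars), for replicate 1 on the left and replicate 2 on the right; error bars are 95% exact Poisson intervals of the window counts. The *Pax7* bars are the highest in both panels, at 47.2 and 94.4 peaks per Mb, and its flanks are the richest too.

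*Msx1* lies on chromosome 5 at 37820491 to 37824585, on the minus strand. All 3 of its shared regions lay upstream of the gene and had *Msx1* as the nearest protein-coding gene. They were chr5:37874976-37875103 at 50.4 kb, chr5:37880169-37880367 at 55.6 kb and chr5:37920095-37920210 at 95.5 kb from the gene. All had low folds, from 3.80 to 4.15 over both replicates. The last had folds of 4.15 and 4.10 in replicates 1 and 2. The first 2 rested on 5 fragments each in replicate 1 and 8 each in replicate 2, numbers recovered from the fold and the p-value of each peak. None of the 3 lay within 50 kb, so that a narrower window left *Msx1* with 0 shared regions.

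The strongest *Msx1* peaks were found in a single replicate each. In replicate 1, chr5:37816722-37816958 lay 3.53 kb beyond the downstream end with a fold of 6.55. In replicate 2, chr5:37785825-37785958 lay 34.5 kb beyond that end with a fold of 6.42. Replicate 2 also had chr5:37824053-37824193 inside *Msx1*, 392 bp from the transcript start, with a fold of 3.70 and 7 fragments. This was the nearest peak to any of the transcript starts examined, and replicate 1 had no peak within 7 kb of it.

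*Msx2* lies on chromosome 13 at 53466881 to 53472780. It had no peak inside the gene or within 2 kb of its ends in either replicate. Its 9 replicate 2 peaks had folds from 3.16 to 4.28, and the highest fold was shared by 2 of them, the farther being chr13:53533979-53534213 at 61.2 kb. The nearest was 13.0 kb from the gene. The nearest replicate 1 peak to the *Msx2* promoter was 108 kb away.

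Promoters of the group were then set beside the peaks. RefSeq sequence of GRCm38.p6 for the 250 bp before and 50 bp after the transcript start was at hand for 6 of the 9 genes, *Msx1*, *Msx2*, *Pax7*, *Pax9*, *Prrx1* and *Prrx2*. None of the 6 promoters was touched by a peak of either replicate. Over protein-coding genes with such an entry, 0.972% had a replicate 1 peak on a promoter and 3.26% a replicate 2 peak, so that 0 of 6 was near the background. The same held for all 36 genes with a promoter entry in the windows, of which 0 had a peak there in replicate 1 and 0 in replicate 2. The word TAATTA, which reads the same on both strands and is a core of sites preferred by homeodomain factors of this kind, was present in 2 of the 6 promoters, those of *Msx2* and *Prrx1*. It was present in 5.29% of the 32851 promoters in the table. The related word CAATTA, the RUNX word TGTGGT and the E-box CACGTG, each read on both strands, were in 0 of the 6, against 8.00%, 16.8% and 7.15% of all promoters. The first 2 words have the letters AATTA in common, and a match is a description of letters, not of binding.

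The 250 bases before the start are shown for the promoter nearest to a peak, that of *Msx1*, and for the 2 promoters with a TAATTA word, which is in capitals. They were read from the minus strand, 5′ to 3′, at chr5:37824586-37824835 for *Msx1*, chr13:53472781-53473030 for *Msx2* and chr1:163313651-163313900 for *Prrx1*. A replicate 2 peak lay 0.343 kb from the *Msx1* promoter, while the nearest replicate 2 peaks were 12.7 kb from that of *Msx2* and 29.0 kb from that of *Prrx1*. The word began 187 bases before the start of *Msx2* and 173 bases before that of *Prrx1*.
Msx1: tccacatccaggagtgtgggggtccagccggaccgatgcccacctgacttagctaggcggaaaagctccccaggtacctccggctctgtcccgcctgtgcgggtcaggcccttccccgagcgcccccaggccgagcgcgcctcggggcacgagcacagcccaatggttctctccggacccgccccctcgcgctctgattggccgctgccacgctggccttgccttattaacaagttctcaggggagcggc
Msx2: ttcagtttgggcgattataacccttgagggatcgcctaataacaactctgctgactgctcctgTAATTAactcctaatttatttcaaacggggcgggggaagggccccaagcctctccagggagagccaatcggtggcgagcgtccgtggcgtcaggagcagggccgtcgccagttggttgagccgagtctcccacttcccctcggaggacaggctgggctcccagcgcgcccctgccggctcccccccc
Prrx1: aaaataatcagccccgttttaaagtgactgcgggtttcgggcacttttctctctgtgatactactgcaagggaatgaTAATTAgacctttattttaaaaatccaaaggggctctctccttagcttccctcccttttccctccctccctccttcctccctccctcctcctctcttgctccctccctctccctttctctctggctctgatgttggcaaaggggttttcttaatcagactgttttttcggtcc

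Across all 6 promoters the nearest replicate 2 peak lay from 0.343 to 29.0 kb away, and those of *Pax9* and *Prrx2*, without the word, were 14.0 and 12.7 kb from one. Of the 250 bases, 68.0% were G or C in *Msx1*, 61.6% in *Msx2* and 47.6% in *Prrx1*.

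*Alx4* lies on chromosome 2 at 93642434 to 93681341, and its strand is not given by the tables used here. It had the widest spread of shared folds. The strongest, chr2:93581824-93582027, lay 60.4 kb from the low-coordinate end of *Alx4* within the lncRNA gene *Gm33061*. Its fold was 8.45 in replicate 1 and 6.11 in replicate 2, on 13 and 18 fragments at the summit. That fold in replicate 1 was the highest of all peaks in the 9 windows. Inside *Alx4*, chr2:93668730-93669320 had folds of 6.46 and 4.66 in replicates 1 and 2, and at 591 bp it was the longest shared region of the group. Also inside, chr2:93675831-93675942 was the weakest of the 17, at 3.26 in replicate 1. The shared regions inside *Alx4* were 2 in number, and 14.6% of protein-coding genes held at least 1.

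Replicate 2 added further peaks at *Alx4*. Its strongest was chr2:93576373-93576648, 65.8 kb from *Alx4* at a fold of 6.36, which replicate 1 did not have. Another, chr2:93682977-93683183, lay 1.64 kb beyond the high-coordinate end with a fold of 3.67. In contrast, *Alx1* on chromosome 10 at 103007847 to 103029549 had a total of 3 peaks, none of them shared. One of these, chr10:103028258-103028382 in replicate 2, lay inside *Alx1*, 1.17 kb from its high-coordinate end, with a fold of 4.28, the same as that of the other replicate 2 peak, 92.0 kb away. The single replicate 1 peak, chr10:102908789-102908933, lay 98.9 kb away with a fold of 5.05. It rested on 6 fragments over the lowest background of replicate 1, 0.387.

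*Prrx2* lies on chromosome 2 at 30845064 to 30881251 in the most crowded of the windows, with 12 annotated genes. Its shared region at chr2:30766869-30767031 ranked first of the 17 when each was ordered by the lower of its folds. The fold was 7.15 in replicate 1 and 6.26 in replicate 2, on 10 and 16 fragments. It was the strongest peak of the window in both replicates, but it lay 78.0 kb upstream of *Prrx2*, and the nearest protein-coding gene was *1700001O22Rik* at 28.5 kb. The other, chr2:30831793-30831905, lay 13.2 kb upstream of *Prrx2* and 3.49 kb from *Asb6*. Neither region thus had *Prrx2* as its nearest coding gene. Inside *Prrx2* there were 2 peaks in each replicate, none of them met, and 1 of these, chr2:30879669-30879761 in replicate 1, lay 1490 bp from the downstream end with a fold of 3.82.

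*Prrx1* lies on chromosome 1 at 163245119 to 163315145 and had no peak inside its 70027 bp in either replicate. Its shared region, chr1:163188748-163188937, lay 56.2 kb beyond the downstream end. The fold was 4.33 in replicate 1 and 4.76 in replicate 2, on 5 and 9 fragments, and the summits were 218 bp apart. The other peaks of the *Prrx1* window, 1 in each replicate, missed each other by 678 bp. *Pax9*, on chromosome 12 at 56691693 to 56712824, likewise had no peak inside the gene. Its shared region, chr12:56665345-56665456, lay 26.2 kb upstream and 1.52 kb from the pseudogene *Gm18339*. The fold was 5.63 in replicate 1 and 4.76 in replicate 2, with summits 26 bp apart, and *Pax9* was the nearest protein-coding gene.

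**Figure D4:**
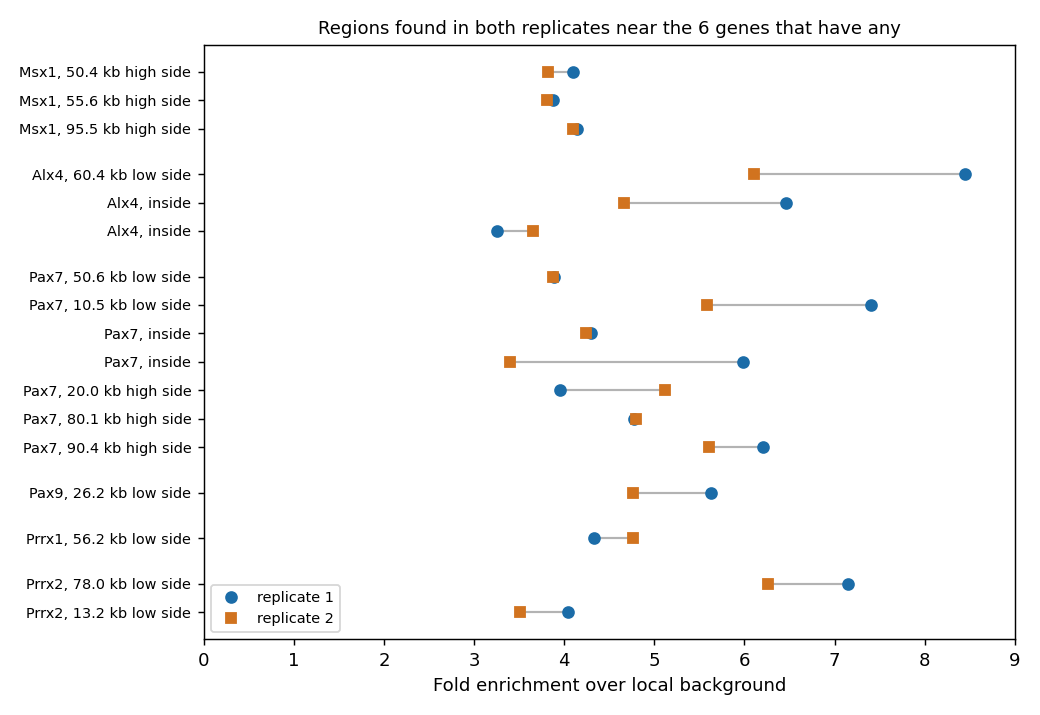
Fold (horizontal axis) of the 17 shared regions in replicate 1 (circles) and replicate 2 (squares), grouped by gene and labelled with the distance and side of the gene in coordinate order. Folds run from 3.26 to 8.45, and 4 regions, in the *Alx4*, *Pax7* and *Prrx2* windows, reach 5 in both replicates.

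Over the 17 shared regions the median fold was 4.33 in replicate 1, with a range of 3.26 to 8.45, and 4.66 in replicate 2, with a range of 3.39 to 6.26. The fold was the higher in replicate 1 for 13 of the 17, against 50.4% of all shared regions. The median of the lower fold was 4.24, against 4.51 over all shared regions. Summits lay a median of 102 bp apart and within 150 bp of each other in 13 of the 17. Of the 17, 4 lay inside one of the 9 genes, at *Alx4* and *Pax7*, and 0 within 2 kb of an end of one. The other 13 lay a median of 55.6 kb from the gene, from 10.5 to 95.5 kb. A gene of any kind held 7 of the 17, and 4 lay within 2 kb of the end of any annotated gene. The counts of placement and of summit distance were not set beside those of all shared regions. They therefore do not tell whether such placement is particular to these windows.

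The share of peaks found again in the other replicate was close to that of the whole lists. Of the replicate 1 peaks in the windows, 43.6% overlapped a peak of replicate 2 (29.3 to 59.0%, 95% Wilson interval), and 38.9% of the whole list did so. For replicate 2 the share was 19.8% (interval 12.7 to 29.4%), against 17.2%. Peaks met in replicate 2 had a median of 12 fragments at the summit and those not met had 9. In replicate 1 both medians were 6. Fragment numbers at these summits ran from 4 to 13 in replicate 1 and from 6 to 18 in replicate 2, so that single peaks rested on few fragments. Over the whole lists the median was 6 fragments in replicate 1 and 9 in replicate 2.

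Other genes of the same families or encoding transcription factors of the face were counted in the same way. The list held 15 genes, *Msx3*, *Pax1*, *Pax2*, *Pax4*, *Pax5*, *Pax6*, *Pax8*, *Gsc*, *Shox2*, *Pitx1*, *Barx1*, *Barx2*, *Lhx6*, *Lhx8* and *Hand2*. Of these 15, 10 had at least 1 shared region, as did 60.2% of all protein-coding genes. The median was 2, with a range of 0 to 4, against a median of 1 over all protein-coding genes. Neither value was tested against its background. The most were found for *Gsc* and *Lhx8*, with 4 each. *Gsc* encodes a homeodomain factor of the first arch and had 7 peaks in replicate 1 and 11 in replicate 2. *Lhx8*, a LIM homeodomain gene active in tooth and palate mesenchyme, had 8 and 11. Shared regions inside the gene were found for *Pax5*, with 2, and *Pax2*, with 1, and 14.6% of protein-coding genes held at least 1. *Hand2*, a basic helix-loop-helix gene that specifies the lower jaw, had 0 peaks in replicate 1 and 0 in replicate 2 within its window. Of the remaining *Pax* genes, *Pax1*, *Pax4*, *Pax6* and *Pax8* had 0 shared regions each.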

How the data were processed

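The authors deposited 1 list of peaks per library in mm10, with the position, fold, −log10 p, −log10 q, score and summit of each peak. Per the labels, the tools were Trim Galore 0.4.5, Bowtie 1.1.2 and MACS2 2.2.7, whereas the methods of the study name another version of the trimmer and a different aligner, Bowtie 2; the caller's settings are not given in the sources used here. The labels describe sonication and precipitation, and the methods transposase tagging. In the authors' files, fold compares the summit pileup with the background of that library, and 1 was taken to be added to each. A summit of 5 fragments over a background of 0.387 thus has a fold of 4.33. The deposited score is the whole part of 10 times the −log10 q, and the lowest −log10 q is 1.00 in either list. No totals of reads were used, since the lists hold none.

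Peaks were assigned to windows of 100 kb around RefSeq gene extents of GRCm38.p6, leaving out 340 genes placed before position 3000000. Fragment numbers were recovered on the assumption that fold is (fragments + 1) over (background + 1) and p the Poisson upper tail; a whole number was found for 100% of peaks in each list, with a tolerance of 0.001, and 0.944% of replicate 1 peaks had more than 1 solution. Assignment and recovery were tested on simulated data. The simulated folds and p-values were made with the assumed formula, so the simulation checked the calculation and not the assumption. Named were all 9 genes, all shared regions, and peaks of 1 replicate within 2 kb of a gene's end or strongest in a window. Both folds are given for the 10 shared regions with the highest lower fold and for those inside *Pax7*. Values of other regions are given by range or as extremes. The genes, lists and rules were chosen with earlier results of these data known, and the comparison with flanks was added after the counts were seen. Of the related genes, 3 are not reported here. Sequences under the peaks were not analysed here. Intervals came from scipy 1.17.1 and statsmodels 0.14.6, tables from pandas 2.3.3 and figures from matplotlib 3.10.9.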

Additional observations from a re-analysis of the deposited data

How the results depend on the processing

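Apart from taking 1 replicate alone, of 28 alternatives to the counts over all 9 genes 12 stayed within 1.5 times the reported count or inside its interval and 16 did not. A −log10 q of at least 5 left 5 peaks in replicate 1, 9 in replicate 2, 4 shared regions and 3 genes with one (*Alx4*, *Pax7* and *Prrx2*), with 80.0% of replicate 1 peaks met. A fold of at least 5 left 15 and 9 peaks, 4 shared regions and 3 genes, the same 3, with 26.7% met. With a window of 50 kb there were 22 and 46 peaks and 8 shared regions, and with 200 kb there were 84 and 171 peaks and 36 shared regions. These counts change by the construction of the filters and windows. At 200 kb each of the 9 genes had a shared region, *Msx2*, *Alx1* and *Pax3* included, against 75.4% of protein-coding genes. Taking 1 replicate alone gave from 39 to 86 peaks in place of the shared regions, with 8 to 9 genes holding one; 2 of these 4 counts moved by over 1.5 times, as did 17 of 18 for single genes. Requiring 50% of each peak to overlap, summits within 150 bp or the 9 genes as nearest coding gene gave 12, 13 and 12 shared regions. For single genes, 26 of 63 other alternatives moved the count by over 1.5 times. The 63 include cases that could not move. All these settings but the 200 kb window can only remove shared regions, and *Msx2*, *Alx1* and *Pax3* had 0 to begin with. *Pax7* had the highest or joint highest count in each alternative except a −log10 q of at least 5, where *Alx4* had 2 and *Pax7* 1. With 2 replicates and no control library, no setting tells bound sites from background common to both, and summits of few fragments limit what could be detected at this depth.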

Other observations

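Near misses between the replicates were few. In the windows, 3 of 22 replicate 1 peaks without a counterpart had a replicate 2 peak within 1 kb, and the median distance was 8.67 kb. The pairs lay at *Prrx1*, 678 bp apart, at *Alx4*, 389 bp apart, and at *Pax7*, 618 bp apart.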
